A study of Mus musculus with 4 samples.

Results

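Kruppel-like factors are DNA-binding proteins that carry C2H2 zinc fingers at the carboxyl end and recognise CACCC and GC-rich elements in promoters. Family members were chosen by name and were found on the array by the RefSeq transcript accession that each probe carries. All 10 of 10 were present, out of 19896 genes with a named probe, and each was represented by 1 probe with 1 spot. They were Klf2, Klf3, Klf4, Klf6, Klf7, Klf9, Klf10, Klf11, Klf12 and Klf13. RNA came from CD4 T cells, the helper lymphocytes, of lymph nodes of male mice aged 7 weeks, and was hybridised to single-colour Agilent arrays. There were 4 groups with 1 array each: wildtype cells left unstimulated, wildtype cells stimulated for 6 h, and the same pair from mice labelled as Med23 knockout. Stimulation was directed at the T cell receptor, per the design text, which asks what depends on Med23, a subunit of Mediator, the complex that joins transcription factors to RNA polymerase II. Not given in the sources used here are the stimulating agent, the kind of Med23 allele, the cells in which it is deleted and any pooling of animals. No group had a replicate, so the number of arrays limits every value, and differences between groups are given by size.

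In resting T cells the family is best known for Klf2, which keeps naive cells quiescent and drives the genes for leaving and re-entering lymph nodes, among them S1pr1 and Ccr7. Klf4 is a brake on T cell division and a driver of monocyte identity. Klf3 and Klf12 repress through the corepressor CtBP, while Klf9, Klf10, Klf11 and Klf13 recruit Sin3A, and Klf6 and Klf7 act mainly as activators.

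The 300-base promoter windows below are shown for the 3 members with the largest stimulation difference pooled over the genotypes (Klf3, Klf13 and Klf2) and for the member that differed most between the stimulated genotypes (Klf7). They run from 250 bases before the transcription start to 50 bases after it, 5′ to 3′ on the strand of the gene, from RefSeq on GRCm38.p6. Capitals mark every match, on either strand, to the CACCC element of the family, the GC box GGGCGG, the forkhead core GTAAACA, the MEF2 consensus or the CArG box.
Klf2, chr8:72318812-72319111, plus strand: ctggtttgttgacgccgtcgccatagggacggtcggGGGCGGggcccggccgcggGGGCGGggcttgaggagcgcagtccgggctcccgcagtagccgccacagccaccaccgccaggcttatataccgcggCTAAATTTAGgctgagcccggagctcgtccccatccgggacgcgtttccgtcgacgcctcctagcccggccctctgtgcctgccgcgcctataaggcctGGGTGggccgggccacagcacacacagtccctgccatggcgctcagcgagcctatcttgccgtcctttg
Klf3, chr5:64803271-64803570, plus strand: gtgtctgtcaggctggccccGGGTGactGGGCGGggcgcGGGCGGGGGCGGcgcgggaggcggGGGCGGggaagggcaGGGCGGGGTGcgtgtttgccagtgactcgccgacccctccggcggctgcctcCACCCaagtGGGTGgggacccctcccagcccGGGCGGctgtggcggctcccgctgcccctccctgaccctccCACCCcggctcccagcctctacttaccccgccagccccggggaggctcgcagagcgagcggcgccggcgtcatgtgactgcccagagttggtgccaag
Klf13, chr7:63938866-63939165, minus strand: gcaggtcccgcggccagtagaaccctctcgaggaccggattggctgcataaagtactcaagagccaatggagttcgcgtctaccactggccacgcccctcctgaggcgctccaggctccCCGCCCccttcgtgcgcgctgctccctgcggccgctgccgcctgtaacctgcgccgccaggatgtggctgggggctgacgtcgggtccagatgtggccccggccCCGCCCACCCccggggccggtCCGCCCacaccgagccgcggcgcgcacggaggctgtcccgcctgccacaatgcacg
Klf7, chr1:64121340-64121639, minus strand: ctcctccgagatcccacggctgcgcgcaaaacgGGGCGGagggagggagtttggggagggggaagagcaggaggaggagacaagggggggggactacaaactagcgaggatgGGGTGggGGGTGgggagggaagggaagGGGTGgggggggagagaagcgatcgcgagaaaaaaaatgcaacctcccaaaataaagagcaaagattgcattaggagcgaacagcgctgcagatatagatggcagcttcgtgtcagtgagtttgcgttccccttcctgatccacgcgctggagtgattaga

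Of the 10 members, 9 had such a window, and Klf10 is named only. CACCC, the letters the family itself recognises, occurred 5 times in the Klf3 window, 3 times in that of Klf7 and 1 time each in those of Klf2 and Klf13. A CACCC match was present in 57.5% of all 32851 promoter windows, so its presence is common. GGGCGG, the GC box, was found 6 times in Klf3, 3 times in Klf13, 2 times in Klf2 and 1 time in Klf7, against 35.7% of all windows with at least 1. In Klf3 and Klf13 some of the CACCC and GGGCGG matches overlap by a base or more. The Klf2 window held the only MEF2 match among the 9 windows, 118 to 109 bases upstream of the start, and 3.19% of all windows held a match. MEF2 factors, acting below the kinase ERK5 (Mapk7), are known activators of Klf2. GTAAACA, the core bound by forkhead factors such as Foxo1, was found among the members only in Klf9 (3.65% of all windows), and no member window held a CArG box (1.63%). TGACG, the core of a CREB site and not marked by capitals, occurred 1 time each in Klf2, Klf3 and Klf13 and not in Klf7 (20.8% of all windows). A match describes letters in the window and not a bound site.

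Levels are log2 signals from which each array's 75th percentile was subtracted, with a floor at -5.01 below which signals were not ordered. Levels of different probes are not set against each other. A gene was measured in a comparison when it lay above the floor in at least 1 array, and it was called higher or lower at a 2-fold difference, which is 1 on the log2 scale. Noise was taken from 399 probes with 10 spots each. For genes with a mean level above 1, the SD of a difference between single spots was 0.0953 to 0.125 across the 4 pairwise comparisons. Between the floor and -3 it was 0.535 to 0.812. This SD covers spots and neither animals nor cultures.

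The samples were checked before the members were read. All 12 T cell identity genes, such as Cd3e and Lck, lay above the floor on all 4 arrays, with summed linear signals (in units of the 75th percentile) of 806 and 520 in wildtype, without and with stimulation, and 841 and 565 in the labelled knockout. After stimulation 5 of 12 were 2-fold lower and 0 higher in wildtype (median -0.66 against -0.02 over all genes). In the labelled knockout 4 of 12 were lower and 0 higher (median -0.69 against 0.05). Of all genes 12.8% were lower and 14.2% higher in wildtype, and 13.8% and 13.5% in the labelled knockout. The stimulated wildtype array stood apart. Of the 15 myeloid genes on the array, 12 were at least 2-fold higher there than on each other array, with a sum of 180 against 44.5 to 60.8, and Camp, Mpo and Ltf were among them. Without Csf3r, which made up most of the sum on the other arrays, as was seen after its values were read, the sums were 138 against 0.841 to 1.14. Of the 10 red cell genes 8 were, with a sum of 163 against 2.01 to 3.97, Hba-a2 among them. This array was also the brightest, with a 75th percentile signal of 680.8 against 243.7 to 332.6. Sums for the CD8 list were 0.199 to 0.743, for endothelium 1.53 to 3.78, for stroma 0.364 to 0.941 and for NK cells 3.69 to 7.02. Those for the B cell list were 1.12 and 0.736 in wildtype, without and with stimulation, and 2.27 and 1.13 in the labelled knockout. The B cell sums were thus higher in the labelled knockout in both states. Ncr1, Klrk1, Ebf1, Tek, Pdgfra, Pdgfrb and Pdpn were at the floor on all arrays. In bulk RNA, fewer cells of a type and less RNA per cell cannot be told apart. The Med23 probe read -1.59 and -0.75 in wildtype, without and with stimulation, and -1.66 and -2.29 in the labelled knockout. It thus differed by -0.07 in the unstimulated pair, with no 2-fold reduction there, and by -1.54 in the stimulated pair. Where the probe lies relative to the deletion is not known, so these values do not decide the genotype. The genotype is therefore called the labelled knockout throughout.

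**Figure D1:**
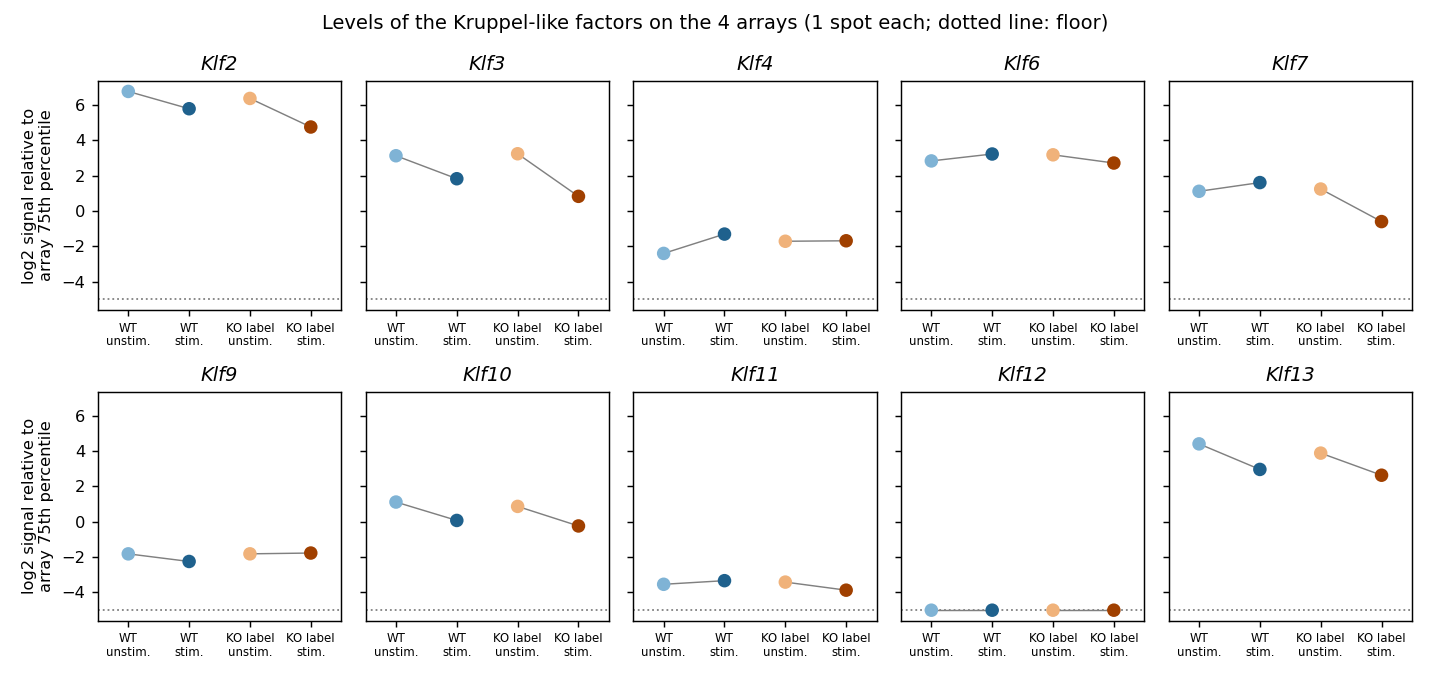
Levels of the 10 Kruppel-like factors on the 4 arrays, 1 panel per gene; the vertical axis is log2 signal minus the array's 75th percentile, each point is 1 array (1 spot), lines join the arrays of a genotype, and the dotted line is the floor. Klf2, Klf3, Klf10 and Klf13 slope down in both genotypes, Klf7 slopes down from 1.24 to -0.60 only between the arrays labelled knockout, and Klf12 lies on the floor.

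Among the activators, Klf2 had levels of 6.76 and 5.78 on the wildtype arrays, without and with stimulation, and of 6.36 and 4.74 on those labelled knockout. Both stimulated arrays lay below both unstimulated ones, and each step in the order exceeded 2 spot SDs (gaps of 0.40, 0.58 and 1.03). Klf2 was 1.97-fold lower after stimulation in wildtype (log2 difference -0.98, spot SD 0.105), just short of the 2-fold rule, and it passed that rule in 3 of 8 alternative settings. In the labelled knockout it was 3.07-fold lower (-1.62, spot SD 0.109). The raw Klf2 signals were 29095, 37361, 27335 and 6534 in the same order, and the deposited table carries no saturation flags. Stimulated labelled knockout cells had 2.05-fold less Klf2 signal than stimulated wildtype cells (-1.03, spot SD 0.125), a call that was lost with scaling to the median (-0.83). The unstimulated pair differed by -0.40, so the genotype gap without stimulation was the smaller, and the difference between the stimulation differences was -0.64 (spot SD 0.157).

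Klf7, an activator known for its part in nerve fibre growth, had levels of 1.11 and 1.60 in wildtype, without and with stimulation, and 1.24 and -0.60 in the labelled knockout. The stimulated labelled knockout array lay below the other 3, which spanned 0.49. Klf7 differed by 0.49 after stimulation in wildtype (spot SD 0.105) and was 3.58-fold lower after stimulation in the labelled knockout (-1.84, spot SD 0.183). In the stimulated pair it was 4.61-fold lower in the labelled knockout (-2.21, spot SD 0.202), and 1.72% of all measured genes were as low or lower in that comparison. The unstimulated pair differed by 0.13, within 2 spot SDs. Its difference between the stimulation differences was -2.33 (spot SD 0.266), which 2.21% of genes reached or passed, and it was past 2-fold in all 8 alternative settings (-2.38 to -2.04). Every comparison of the stimulated genotypes rests on the stimulated wildtype array, which stood apart, and has no value without it. The part of the other cell types' RNA on that array in the Klf7 value was not tested.

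Klf6, an activator that binds GC boxes and is induced by growth signals in many tissues, had levels of 2.83 and 3.22 in wildtype, unstimulated and stimulated, and 3.17 and 2.71 in the labelled knockout. The 4 levels lay within 0.51 of each other. Its stimulation difference was 0.39 (spot SD 0.105) in wildtype and -0.46 (spot SD 0.109) in the labelled knockout, neither past 2-fold. The gap between those values was -0.86, past 2-fold in 2 of 8 alternative settings.

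Klf4 was dimmer, with levels of -2.40 and -1.31 in wildtype and -1.72 and -1.69 in the labelled knockout. The unstimulated wildtype array was the low one, and no neighbouring levels among the other 3 were separated beyond 2 spot SDs. The stimulation difference in wildtype was 1.09 (2.13-fold, spot SD 0.458), past 2-fold in 4 of 8 alternative settings, and 0.03 in the labelled knockout. Klf4 is expressed in monocytes as well as T cells. Its stimulated wildtype level was within 2 spot SDs of the stimulated labelled knockout level (gap 0.38, spot SD 0.443). The summed myeloid markers on the stimulated wildtype array were 180 against at most 60.8 elsewhere, or 138 against at most 1.14 without Csf3r. The part of myeloid cells in the Klf4 value was not tested.

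Among the CtBP-dependent repressors, Klf3 had levels of 3.12 and 1.82 in wildtype, without and with stimulation, and 3.23 and 0.82 in the labelled knockout. The unstimulated arrays did not differ beyond 2 spot SDs (0.11), and both stimulated arrays lay well below them. Klf3 was 2.46-fold lower after stimulation in wildtype (-1.30, spot SD 0.105) and 5.31-fold lower in the labelled knockout (-2.41, spot SD 0.109). In the latter comparison 1.60% of genes were as low or lower. The stimulated pair differed by 1.99-fold (-0.996, spot SD 0.125), lower in the labelled knockout and just short of the rule, and past it in 2 of 8 alternative settings. The difference between the stimulation differences was -1.11 (spot SD 0.157), called in 7 of 8 alternatives and missed with scaling to the median (-0.82). Klf12 was at the floor on all 4 arrays, with scaled values of -5.98, -6.23, -6.12 and -5.05, and no difference is given for it.

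Among the Sin3A-dependent repressors, Klf13, an activator of Ccl5 in T cells also called RFLAT-1, had levels of 4.40 and 2.95 in wildtype and 3.87 and 2.62 in the labelled knockout. All 4 arrays were separated by more than 2 spot SDs. Klf13 was 2.72-fold lower after stimulation in wildtype (-1.44, spot SD 0.105) and 2.38-fold lower in the labelled knockout (-1.25, spot SD 0.109). It differed between genotypes by -0.52 unstimulated and -0.33 stimulated, and between the stimulation differences by 0.19 (spot SD 0.157). Klf10, which is induced by TGF-β, had levels of 1.11 and 0.07 in wildtype and 0.86 and -0.25 in the labelled knockout. Stimulated arrays were low in both genotypes, and within either state the genotypes were not separated beyond 2 spot SDs. It was 2.06-fold lower after stimulation in wildtype (-1.04, spot SD 0.165) and 2.15-fold lower in the labelled knockout (-1.11, spot SD 0.183). The gap between those values was -0.07 and turned to 0.22 with scaling to the median.

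Klf9, induced by glucocorticoid and thyroid hormone in many tissues, had levels of -1.82 and -2.25 in wildtype and -1.82 and -1.78 in the labelled knockout. Klf11, a close relative of Klf10, had levels of -3.54 and -3.34 in wildtype and -3.42 and -3.88 in the labelled knockout. For both genes no neighbouring levels were separated by more than 2 spot SDs. The stimulation differences of Klf9 were -0.43 and 0.04 in wildtype and the labelled knockout, and those of Klf11 were 0.20, which turned to -0.04 with scaling to the median, and -0.46.

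Counted together, 3 of the 9 measured members were 2-fold lower after stimulation in wildtype (Klf3, Klf10 and Klf13) and 1 was higher (Klf4), with a median of -0.43 against -0.02 over all genes. In this comparison 12.8% of all 14619 measured genes were lower and 14.2% higher. The wildtype falls are relative to the array's 75th percentile, which was 269.1 without and 680.8 with stimulation. The raw signals, in that order, were 2339 and 2404 for Klf3, 579 and 713 for Klf10, and 5666 and 5266 for Klf13. In the labelled knockout 5 of 9 were lower (Klf2, Klf3, Klf7, Klf10 and Klf13) and 0 higher, with a median of -1.11 against 0.05, where 13.8% of 14229 genes were lower and 13.5% higher. Between the unstimulated arrays 0 of 9 members passed 2-fold in either direction (median 0.11 against -0.02), where 1.42% of 14008 genes were lower and 3.31% higher in the labelled knockout. Between the stimulated arrays 2 of 9 were lower (Klf2 and Klf7) and 0 higher (median -0.51 against 0.09), where 8.13% of 14629 genes were lower and 4.98% higher. The difference between the stimulation differences was past 2-fold and negative for 3 of 9 (Klf3, Klf4 and Klf7) and positive for 0 (median -0.66 against 0.09), where 10.6% of 15230 genes were negative and 7.07% positive. These 5 comparisons draw on the same 4 arrays and are not independent of each other. With scaling to the median only Klf7 was past 2-fold in the last 2 of them.

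**Figure D2:**
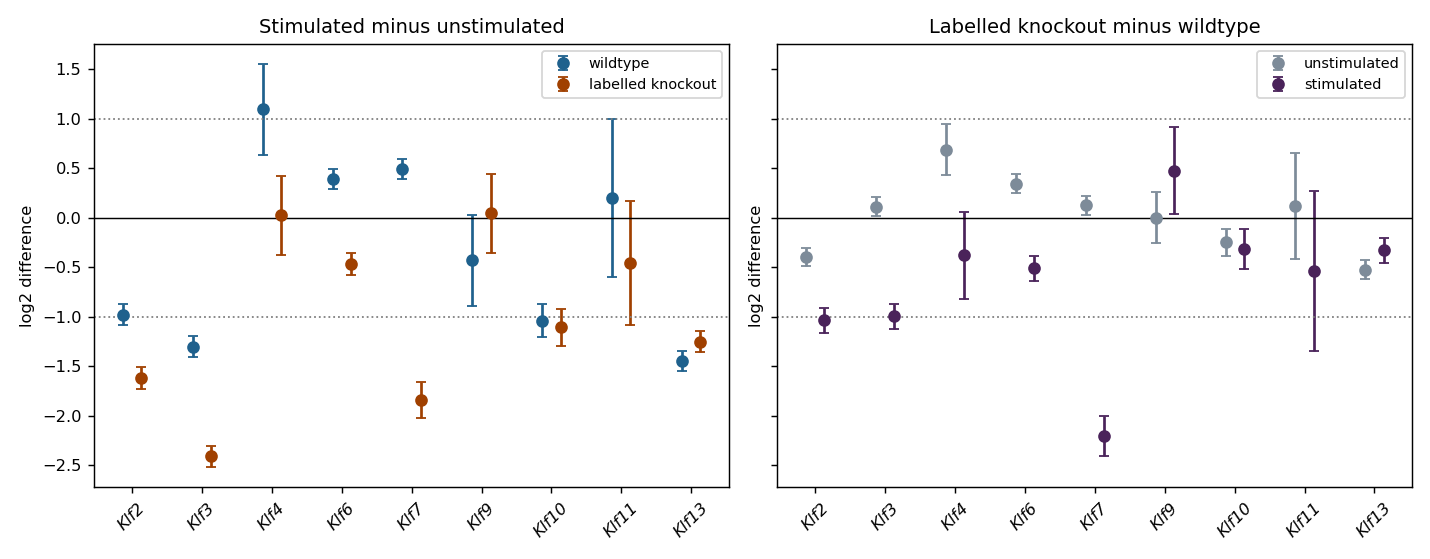
Log2 differences of the 9 measured members, stimulated minus unstimulated (left) and labelled knockout minus wildtype (right); each point compares 1 array with 1 array, bars are plus and minus 1 spot SD and cover no biological spread, and dotted lines mark 2-fold. Klf7 in the stimulated pair (-2.21) and Klf3 after stimulation in the labelled knockout (-2.41) lie farthest from 0.

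A fit of all genes with genotype and stimulation as terms (limma) treated the genotypes as a pair of measurements of stimulation, 2 arrays against 2. Its error is the disagreement between the genotypes, with 1 residual degree of freedom, and holds no replicate of a group. Of the 9 members 0 passed an adjusted p of 0.05 for stimulation by limma with Benjamini-Hochberg adjustment, and 4 had an unadjusted p under 0.05. Over all 15230 genes 3.26% were called higher and 3.09% lower, and 26.1% had such an unadjusted p. Klf3 had a pooled log2 difference of -1.85 (SE 0.378, limma adjusted p = 0.0574), lower in 2 of 2 genotypes. For Klf13 it was -1.35 (SE 0.287, limma adjusted p = 0.061), for Klf2 -1.30 (SE 0.318, limma adjusted p = 0.079) and for Klf10 -1.07 (SE 0.284, limma adjusted p = 0.0918), each lower in 2 of 2. Across 9 alternative settings the adjusted p ranged from 0.00107 to 0.129 for Klf3, from 0.00325 to 0.115 for Klf13, from 0.00392 to 0.144 for Klf2 and from 0.0213 to 0.131 for Klf10. In the deposited normalized values, all 4 passed. The other 5 had adjusted p values from 0.41 to 0.967. Without the stimulated wildtype array, which stood apart, the stimulation values are those of the labelled knockout pair, -2.41 for Klf3, -1.25 for Klf13, -1.62 for Klf2 and -1.11 for Klf10, with no test.

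The genotype term of the same limma fit called 0% of the 15230 genes lower and 0% higher, and 0 of 9 members passed, with 0 at an unadjusted p under 0.05 where 3.15% of genes had one. The largest pooled genotype differences among members were those of Klf7 (-1.04, SE 0.597, limma adjusted p = 0.999) and Klf2 (-0.71, SE 0.318, limma adjusted p = 0.999). For Klf7 the stimulated pair differed by -2.21 and the unstimulated pair by 0.13.

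**Figure D3:**
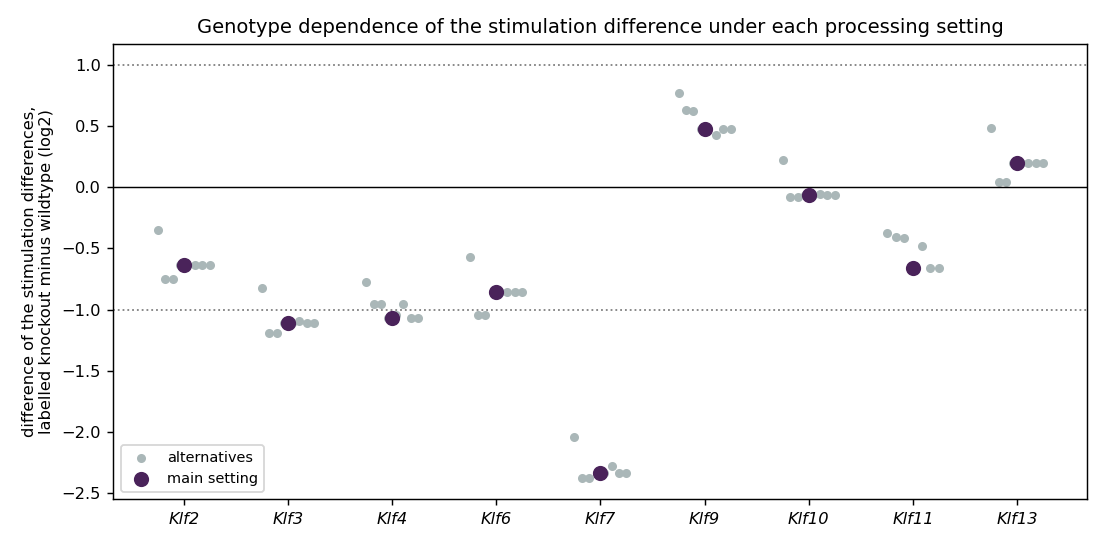
Stimulation difference in the labelled knockout minus that in wildtype (log2) for the 9 measured members; the large point is the value reported here, small points are the alternative processing settings, and dotted lines mark 2-fold. Klf7 stays between -2.38 and -2.04 under every setting drawn, while Klf3, Klf4 and Klf6 have settings on either side of -1.

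The genes that Klf2 supports in T cells were read next, from a list of 7. After stimulation 4 of 7 were 2-fold lower in wildtype and 1 higher (median -1.50 against -0.02 over all genes), and 5 of 7 were lower in the labelled knockout and 0 higher (median -1.64 against 0.05). Over all genes 12.8% were lower and 14.2% higher in wildtype, and 13.8% and 13.5% in the labelled knockout. The integrin chain Itgb7, for entry into gut tissue, differed by -2.76 in wildtype and -2.89 in the labelled knockout. The egress receptor S1pr1 had levels of 4.49 and 2.36 in wildtype and 3.82 and 1.81 in the labelled knockout, differences of -2.12 and -2.01. Its relative S1pr4 differed by -1.74 and -1.75. These 3 genes fell in the pooled fit, at -2.83, -2.07 and -1.75 (limma adjusted p = 0.0253, 0.032 and 0.0391).

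Other genes of the list did not all go the same way. Ccr7, which guides cells into the lymph node, differed by -1.50 in wildtype and -0.76 in the labelled knockout. Cdkn1b, a cell cycle inhibitor, differed by -0.54 after stimulation in wildtype and -1.64 in the labelled knockout, and by -1.17 between the stimulated arrays, with a difference between the stimulation differences of -1.10. The other cell cycle inhibitor of the list, Cdkn1a, was the higher member in wildtype as the mean of its 2 probes (1.70, against 0.73 in the labelled knockout), but the probes disagreed. The probe above the floor on all 4 arrays differed by 2.91 after stimulation in wildtype and 2.49 in the labelled knockout, and by 1.75 and 1.33 between the genotypes, unstimulated and stimulated. The other probe was at the floor on 2 arrays. With the brighter probe alone Cdkn1a would count as higher in both genotypes. Between the stimulated genotypes 2 of 7 were lower (Cdkn1b among them, median -0.35 against 0.09 over all genes), where 8.13% of all genes were lower. In the unstimulated pair 1 was higher (Cdkn1a, median -0.30 against -0.02), where 3.31% of all genes were higher.

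Of 7 genes that Klf2 restrains, 3 were higher and 1 lower after stimulation in wildtype (median 0.70 against -0.02 over all genes), and 3 higher and 2 lower in the labelled knockout (median 0.45 against 0.05). Over all genes 14.2% were higher and 12.8% lower in wildtype, and 13.5% and 13.8% in the labelled knockout. The higher genes were the same 3 in both. Il4, the T helper 2 cytokine, had levels of -3.30 and 0.01 in wildtype and -0.45 and 2.19 in the labelled knockout, so it differed by 3.32 and 2.64 after stimulation and by 2.85 and 2.18 between genotypes, unstimulated and stimulated. Myc, a driver of growth, differed by 2.24 and 2.67. Il4 and Myc rose in the pooled fit, at 2.98 and 2.46 (limma adjusted p = 0.0266 and 0.03). Bcl6, which directs follicular helper cells, differed by 2.52 and 1.25, a difference between the stimulation differences of -1.27. Cxcr5, the receptor for B cell follicles, was lower after stimulation (-1.85 and -1.30) and was 1.17 higher in the labelled knockout between stimulated arrays. Ccr3 was at the floor only in the stimulated labelled knockout array, at most -1.26 after stimulation, at most -1.36 against stimulated wildtype and at most -1.96 as a difference between the stimulation differences. It was dim elsewhere too (-4.35 and -3.65 in wildtype, -3.75 in the unstimulated labelled knockout). At such levels the spot SD was 0.625, 0.812 and 0.991 for those values in turn. Cxcr3 was not past 2-fold in any comparison.

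**Figure D4:**
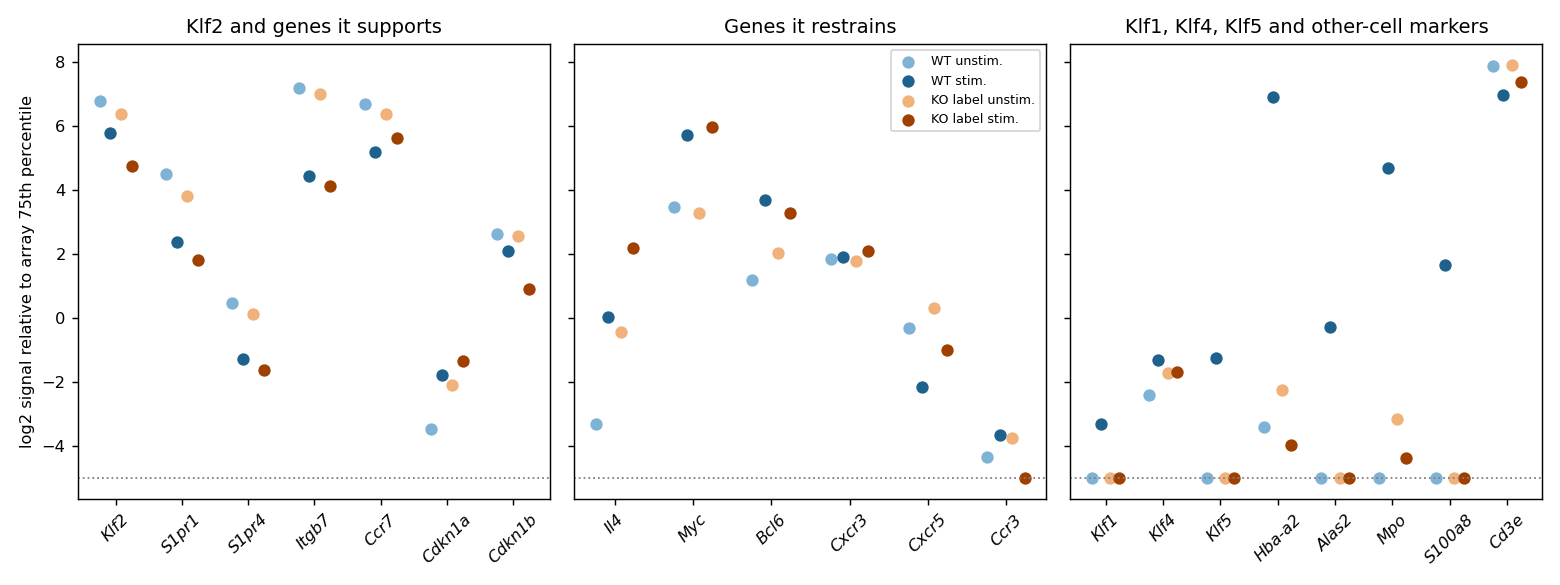
Levels (log2 signal minus the array's 75th percentile) of Klf2 and 6 of the genes it supports (left), 6 of those it restrains (middle) and Klf1, Klf4 and Klf5 beside red cell, myeloid and T cell markers (right), with 1 point per array and the floor as a dotted line. S1pr1 and Itgb7 lie lower on both stimulated arrays, and Klf1, Klf5, Alas2 and S100a8 lie above the floor only on the stimulated wildtype array.

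Regulators upstream of Klf2 and Klf4 formed a list of 19, of which 16 were measured and Foxo4, Mef2b and Mef2c were at the floor on all arrays. In wildtype 5 were 2-fold lower and 1 higher after stimulation (median -0.29), and in the labelled knockout 2 were lower and 1 higher (median -0.15). The all-gene medians were -0.02 and 0.05. Of all genes 12.8% were lower and 14.2% higher in wildtype, and 13.8% and 13.5% in the labelled knockout. Foxo1, the forkhead factor that activates Klf2 in naive T cells, had levels of 4.41 and 2.20 in wildtype and 3.96 and 2.43 in the labelled knockout. It differed by -2.21 and -1.53 and fell in the pooled fit (-1.87, SE 0.323, limma adjusted p = 0.0439). Map3k3, a kinase above ERK5, was also lower in both genotypes (-2.04 and -1.22). The interleukin-7 receptor chain Il7r (-1.38), Elf4 (-1.22), an activator of Klf4 in CD8 T cells, and Hdac5 (-1.06) were lower in wildtype, and their values in the labelled knockout were -0.97, -0.76 and -0.98. Mef2d was 1.20 higher in the labelled knockout (0.39 in wildtype). Hdac4, a class II histone deacetylase that binds MEF2 factors, differed by 1.22 in wildtype and -0.76 in the labelled knockout, and its stimulated arrays differed by -1.98. Its difference between the stimulation differences was -1.99. Hdac7, of the same class, was 1.28 higher in the stimulated labelled knockout, with a difference between the stimulation differences of 1.035. No gene of the list passed 2-fold between the unstimulated arrays, where 1.42% of all genes were lower and 3.31% higher in the labelled knockout.

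Of 11 corepressors that members recruit, 1 was higher and 1 lower in wildtype (median -0.24 against -0.02 over all genes), where 14.2% of all genes were higher and 12.8% lower. The labelled knockout had 3 higher and 1 lower (median 0.18 against 0.05), where 13.5% were higher and 13.8% lower. Sap30, a subunit of the Sin3A complex, differed by 1.84 and 2.23 and rose in the pooled fit (2.03, limma adjusted p = 0.0343). Hdac1 was lower in wildtype (-1.03). In the labelled knockout Hdac2 (1.28) and Rbbp7 (1.27) were higher and Ctbp2 (-1.0), a partner of Klf3, was lower. The Ctbp2 levels there were -3.01 and -4.01, where the spot SD was 0.625, so its value lay within 2 spot SDs. Sin3a itself differed by -0.45 and -0.01, and Ctbp1 by -0.44 and 0.18. Between genotypes 0 of 11 passed 2-fold in either state. Of all genes 1.42% were lower and 3.31% higher in the unstimulated labelled knockout, and 8.13% and 4.98% in the stimulated one. Of the 3 acetyltransferase coactivators, Ep300 was lower in both genotypes (-1.20 and -1.17), Kat2b was lower in wildtype (-1.14) and Crebbp was not past 2-fold.

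The TGF-β pathway, which induces Klf10 and Klf11, had 2 of 13 genes higher and 3 lower after stimulation in wildtype (median 0.00 against -0.02 over all genes), where 14.2% of all genes were higher and 12.8% lower. In the labelled knockout 3 of 12 were higher and 2 lower (median 0.04 against 0.05), where 13.5% were higher and 13.8% lower. Tgif1, a repressor of SMAD targets, differed by 1.81 and 3.33 and rose in the pooled fit (2.57, limma adjusted p = 0.0439). The receptor Tgfbr2 was lower in both (-1.45 and -1.14). In wildtype Smad6 was at least 1.16 higher, and Ski (-1.82) and Smurf2 (-1.50) were lower. Smad6 lay above the floor only on the stimulated wildtype array, at -3.85, where the spot SD was 0.797. In the labelled knockout Tgfb1 (1.63) was also higher and Smad7 was at most -1.65. Between the stimulated arrays Smad3 (1.26) and Tgif1 (1.13) were among the higher genes in the labelled knockout, and Smad7 (at most -2.90) and Smad6 (at most -1.16) were lower.

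Glucocorticoid-responsive genes, the class to which Klf9 belongs, had 2 of 11 higher and 3 lower in wildtype (median -0.33 against -0.02 over all genes) and 2 higher and 5 lower in the labelled knockout (median -0.67 against 0.05). The all-gene shares were those given for the corepressors. Ddit4, an mTORC1 inhibitor, differed by -4.84 and -3.75, Tsc22d3, which encodes GILZ, by -2.66 and -3.11, and Sgk1 by -2.31 and -2.94. Errfi1 was higher in both (2.0 and 2.85) as was the clock gene Per1 (1.12 and 1.81). In the pooled fit Ddit4 (-4.29), Tsc22d3 (-2.88) and Sgk1 (-2.62) fell and Errfi1 (2.43) rose (limma adjusted p = 0.0239, 0.0257, 0.0296 and 0.033). Nr3c1, the receptor itself, differed by -0.79 and -0.55. Klf9 differed by -0.43 and 0.04 beside them. The metallothioneins Mt1 and Mt2 were 1.69 and 1.56 higher in the unstimulated labelled knockout.

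Ccl5, the chemokine gene that Klf13 activates late in T cell activation, had levels of 5.47 and 3.0 in wildtype and 7.09 and 5.23 in the labelled knockout. It was lower after stimulation in both genotypes (-2.46 and -1.86), as Klf13 was, and fell in the pooled fit (-2.16, limma adjusted p = 0.0342). Between genotypes Ccl5 was 1.62 higher in the unstimulated and 2.23 higher in the stimulated labelled knockout, where Klf13 differed by -0.52 and -0.33. It did not pass the pooled genotype test (1.92, SE 0.315, limma adjusted p = 0.984).

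Of the other 16 Kruppel-like and Sp factors, 3 of the 12 measured were higher and 1 lower after stimulation in wildtype (median -0.45 against -0.02 over all genes), and 2 of 10 higher and 2 lower in the labelled knockout (median 0.04 against 0.05), beside the same all-gene shares. Klf16 was higher in both (1.57 and 1.85) and rose in the pooled fit (1.71, limma adjusted p = 0.0428). Sp6 was lower in both (-1.69 and -1.62) and fell in that fit (limma adjusted p = 0.0438). Klf5 (at least 3.76 higher) and Klf1 (at least 1.69 higher), the erythroid factor, lay above the floor only on the stimulated wildtype array, the one with the summed red cell signal of 163 against at most 3.97. The part of these cells in both values was not tested. In the labelled knockout Sp7 was at least 1.25 higher and Klf8, a CtBP-dependent relative of Klf3, was lower (-1.32, and -0.87 in wildtype). Sp7 lay above the floor only on the stimulated labelled knockout array (-3.76), and Klf1 read -3.32 on the stimulated wildtype array. Between the floor and -3 the spot SD after stimulation was 0.625 in the labelled knockout and 0.797 in wildtype. Klf14, Klf15 and Sp5 were at the floor on all arrays.

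Genes most like a member were sought by the Euclidean distance between mean-centred levels over the 4 arrays, among 9219 genes above -3 on each. Nearest to Klf2 were Tmem71 (distance 0.0548), Mindy1 (0.142) and Ethe1 (0.155). Nearest to Klf3 were Smpdl3a (0.121), Mical1 (0.144) and Mbd5 (0.150). For Klf7 they were Usp28 (0.102), H2ac22 (0.286) and Cnr2 (0.337). Usp28 had levels of 1.97, 2.33, 1.99 and 0.21 in the order of the Klf7 levels above, with the stimulated labelled knockout array again the low one. With 4 arrays such likeness is a description only.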

How the data were processed

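Single-colour arrays of 4 samples were used. The deposited raw table holds spot intensity on a linear scale, as left by Agilent Feature Extraction 10.7.3.1, per the submitters' processing notes. A deposited table of log2 values for 17878 probes was normalized by the authors, per the file headers in GeneSpring GX 11.5.1. Not given in the sources used here are its method, its filter and the genome build of the array annotation. Of 44397 spots 1377 were controls and were left out. Spots of a probe were averaged as log2, each array's 75th percentile was subtracted, and values under the median of the arrays' 40th percentiles were set to that floor. Of 39429 probes 26299 were named, by unversioned accession, through RefSeq's table for GRCm38.p6, and probes of a gene were averaged. A difference with 1 side at the floor is a bound ("at least" or "at most"). With 1 array per group no pairwise p-value was possible. The pooled fit used limma 3.58.1 in R 4.3.3 (additive genotype and stimulation, prior degrees of freedom 3.94). It was also run on simulated data with no genotype effect and the same stimulation effect in both genotypes. That run checks the code and not how well the fit suits these arrays. No label says that samples came from separate animals, so p-values measure only the spread between these arrays. Alternatives were scaling to the median, quantile normalization, the deposited log2 values, floors at the 20th and 60th percentiles, a pseudocount, the brightest probe or the median of probes, and fits without the other term. Members and lists were chosen with earlier results of these data known. All members are named. From each list every gene past 2-fold is named where 6 or fewer were, otherwise the 4 with the largest difference, and S1pr1, Ccr7 and Foxo1 always; some list genes are counted but not reported here by name. For cell type markers summed signals are given in place of single genes. Likeness was computed for Klf2 and the other 2 members with the widest range of levels.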

Additional observations from a re-analysis of the deposited data

Results flagged for a closer look

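For 4 members the stimulation difference ran in opposite directions in wildtype and the labelled knockout, and with 1 array per group the difference was not tested. Klf7 differed by 0.49 in wildtype and -1.84 in the labelled knockout, a gap of -2.33 (spot SD 0.266). Klf6 differed by 0.39 and -0.46, a gap of -0.86 (spot SD 0.157). Klf11 differed by 0.20 and -0.46, a gap of -0.66, smaller than its spot SD of 0.991, and its wildtype value turned to -0.04 with scaling to the median. Klf9 differed by -0.43 and 0.04, a gap of 0.48, smaller than its spot SD of 0.573.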

How the results depend on the processing

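Among 515 values of single members under the alternatives, 481 stayed on their side of the threshold, 24 passed the threshold newly, 10 no longer passed it and 0 of the called ones changed sign. Of the 481, 476 kept their direction and 5 uncalled ones changed sign. These were, with scaling to the median, Klf11 after stimulation in wildtype (-0.04) and Klf10 in the difference between the stimulation differences (0.22), and Klf9 in the unstimulated pair with scaling to the median (-0.08), quantile normalization (-0.06) and the deposited values (-0.06). The pooled stimulation count of 0 members became 4 with the deposited normalized values or a floor at the 60th percentile, 3 with median scaling or the pseudocount, and 1 with quantile normalization, the floor at the 20th percentile and the brightest probe. With scaling to the median the count past 2-fold went from 2 to 1 between the stimulated genotypes and from 3 to 1 for the difference between the stimulation differences. The cause was not tested. That scaling moved the median of all genes from -0.02 to -0.23 after stimulation in wildtype (-0.18 with the deposited values), from 0.09 to 0.28 between the stimulated genotypes and from 0.09 to 0.34 for the difference between the stimulation differences. The higher share of all genes past 2-fold went from 52.6% to 36.2% (41.6% with the deposited values), from 38.0% to 59.97% (51.8%) and from 39.9% to 66.9% (52.6%) in the same order. In the unstimulated pair it went from 69.9% to 59.5% with the floor at the 20th percentile. Klf12 was measured only with that floor, and Klf11 was not measured with the floor at the 60th percentile. Without the stimulated wildtype array the pooled stimulation value is that of the labelled knockout pair alone. No paired analysis was possible because the labels carry no replicate numbers and each group has 1 array. Dim members (Klf4, Klf9, Klf11) are limited by spot noise, and no value carries the spread between animals.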

Other observations

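Beside the members, the metallothionein genes Mt1 and Mt2 were past 2-fold between the genotypes in the unstimulated pair and not in the stimulated pair. Mt1 had levels of 1.40 and 1.23 in wildtype, without and with stimulation, and 3.09 and 0.62 in the labelled knockout, and Mt2 had 0.43, 0.33, 1.99 and 0.13. Their differences between the stimulation differences were -2.30 and -1.77, and that of Ddit4 was 1.09. Among the TGF-β genes, the same quantity was 1.52 for Tgif1, 1.10 for Tgfb1 and 1.05 for Ski, and at most -2.44 for Smad7. Among the other family members it was 1.01 for Sp1, and at least 1.39 for Sp9 and 1.01 for Sp3. Klf1, Klf5, Sp7 and Smad6 were at the floor on both arrays of a genotype, so this quantity has no bound for them. The probes of Sp3 and Sp9 lay within 1 log2 unit of the floor on every array.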
